A study of Mus musculus with 9 samples.

Results

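Fetal mouse ovaries grafted under the kidney capsule of male hosts were measured once on day 15 post-transplantation, and that single array was compared with the 3 arrays on either side of it in time: day 10 replicates 1 and 2 and day 20 replicate 2. All 45101 probe sets of the Affymetrix mouse expression array were ranked by the day 15 value minus the mean of the 3 neighbouring arrays on the deposited log2 scale, and those with a day 15 value outside the range of the neighbours were kept. The day 15 array is 1 of 9 arrays in the series, and the comparison uses 4 of them. The grafts were XX ovaries of ICR mice (C57BL/6 and ICR according to the methods), taken at 13 dpc from mothers injected on consecutive days before with busulfan at 40 mg/kg, an alkylating agent that depletes germ cells. All groups share this pretreatment, including the ungrafted day 0 ovaries. Transcripts of germ cells were still measured. The mean log2 level of 15 oocyte and germ cell genes was 6.5 and 7.9 on the ungrafted arrays. It was 8.0 and 9.7 on day 10 replicates 1 and 2, 9.3 on day 15 and 9.4 on day 20 replicate 2. The hosts were XY nude mice (BALB/c nu/nu) of 8 weeks, which lack a thymus and most T cells but keep macrophages, granulocytes and B cells, and approximately 10 grafts were pooled for each array. Day 20 replicate 1 was not taken as a neighbour because it carried kidney transcripts. The mean log2 level of 13 kidney tubule and podocyte genes was 9.83 on that array, 5.23, 5.69 and 5.41 on the 3 neighbours (day 10 replicates 1 and 2, then day 20 replicate 2, in this order throughout) and 5.66 on day 15.

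Immediate early genes encode transcription factors and signalling proteins that cells transcribe rapidly after growth factor, mechanical or stress signals, without new protein synthesis. FOS and JUN proteins pair to form AP-1, EGR and NR4A proteins act beside it, and the same signals induce their own brakes, among them the dual-specificity phosphatases that switch off MAP kinases. Heat shock proteins of the HSP70 class and their partners refold damaged proteins. Macrophages, which clear debris, enter grafted tissue from the host, and with other antigen-presenting cells they carry MHC class II molecules.

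On day 15 the transcripts of this early response were high together. Of 18194 genes, each taken at the probe set with the highest mean over all arrays, 66 were above the range of the neighbours and over 2-fold above their mean (0.363% of all genes), and 26 were below it by as much (0.143%). Of the 66 genes, 31 were among the 74 measured members of the lists of AP-1 subunits, EGR and NR4A factors, other immediate early regulators, feedback inhibitors of activation, and heat shock proteins and chaperones, and none of the 74 was among the 26. The median difference over these 74 genes was 0.71 on the log2 scale, against 0.01 over all genes. The lists were chosen with earlier results of these data known, so the overlap and this median are descriptions and not independent support. On the downward side, 2 of 7 MHC class II genes, 2 of 15 macrophage genes, 2 of 10 granulocyte and mast cell genes and 1 of 17 interferon-stimulated genes were called. These counts describe 1 array on day 15. A limma fit of day 15 against the 3 neighbours, in which the lone array is assumed to vary like them, called no probe set at an adjusted p below 0.05 and a difference over 2-fold; the smallest adjusted p was 0.372, and 981 probe sets (2.18%) were higher and 662 (1.47%) lower at an unadjusted p below 0.05. In such pooled tissue, fewer cells of a type and less RNA per cell cannot be told apart.

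Of the defining markers of the ovary, Foxl2, the transcription factor of granulosa cells, was 12.92, 12.68 and 12.98 on the neighbours and 12.76 on day 15. None of the 17 pre-granulosa, 14 granulosa, 18 Sertoli cell or 8 theca and Leydig cell genes measured was called in either direction, where 0.363% of all genes were called higher and 0.143% lower. Of the 17 pre-granulosa genes, 8 were below the range of the neighbours and 1 above it (median difference -0.18, lowest -0.72), against 20.1% and 22.3% of all genes. Of the 18 Sertoli cell genes, 4 were above the range and 2 below it (median difference 0.07, lowest -0.33). Of the 14 granulosa genes, 3 were above the range and 1 below it (median 0.11). Sox9, which directs Sertoli cell differentiation, was 7.30, 7.10 and 7.31 on the neighbours and 7.91 on day 15, a difference of 0.68. Amh, the hormone of both Sertoli and granulosa cells, differed by 0.24. Both were highest of the 9 arrays on day 15, where 4 of the 18 Sertoli cell genes and 7.76% of all genes were. Zc3h12c, a list member for Sertoli cells, differed by 0.15 and lay within the range of the neighbours. Over all probe sets the day 15 array correlated with the neighbours at Pearson r = 0.990, 0.988 and 0.992, and the SD of its difference from them was 0.343, 0.383 and 0.322, against 0.343 between the day 10 replicates.

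The promoters of 6 genes from the higher side are shown because they hold, in capitals, the sequence elements named for the factors of this response: the CArG box bound by serum response factor in Egr2, Dusp5 and Srf, the cAMP response element TGACGTCA in Dusp1, and the heat shock element GAANNTTC in Hspa1a and Hspa1b. Each run covers 250 bases before to 50 bases after an annotated start, 5′ to 3′ on the strand of the gene, from RefSeq on GRCm38.p6. The windows are chr10:67537619-67537918 on the plus strand for Egr2 (1 of 5 starts), chr19:53528895-53529194 on the plus strand for Dusp5, chr17:46556113-46556412 on the minus strand for Srf, chr17:26508423-26508722 on the minus strand for Dusp1, chr17:34972107-34972406 on the minus strand for Hspa1a and chr17:34959189-34959488 on the minus strand for Hspa1b.
Egr2: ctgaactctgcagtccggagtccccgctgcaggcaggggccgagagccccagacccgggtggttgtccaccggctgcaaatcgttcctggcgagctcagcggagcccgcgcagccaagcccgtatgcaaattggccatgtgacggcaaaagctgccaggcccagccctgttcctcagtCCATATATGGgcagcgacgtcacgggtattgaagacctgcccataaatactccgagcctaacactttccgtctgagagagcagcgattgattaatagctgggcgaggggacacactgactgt
Dusp5: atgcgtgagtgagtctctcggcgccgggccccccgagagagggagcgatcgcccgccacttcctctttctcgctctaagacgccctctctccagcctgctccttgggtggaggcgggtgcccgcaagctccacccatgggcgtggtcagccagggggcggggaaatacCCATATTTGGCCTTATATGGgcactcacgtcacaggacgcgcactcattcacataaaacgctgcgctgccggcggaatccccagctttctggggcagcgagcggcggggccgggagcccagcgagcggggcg
Srf: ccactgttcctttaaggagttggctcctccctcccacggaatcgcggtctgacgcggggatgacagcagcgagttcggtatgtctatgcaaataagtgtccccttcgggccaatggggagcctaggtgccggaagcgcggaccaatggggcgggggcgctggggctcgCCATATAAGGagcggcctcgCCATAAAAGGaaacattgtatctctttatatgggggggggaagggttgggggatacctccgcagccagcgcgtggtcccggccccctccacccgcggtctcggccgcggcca
Dusp1: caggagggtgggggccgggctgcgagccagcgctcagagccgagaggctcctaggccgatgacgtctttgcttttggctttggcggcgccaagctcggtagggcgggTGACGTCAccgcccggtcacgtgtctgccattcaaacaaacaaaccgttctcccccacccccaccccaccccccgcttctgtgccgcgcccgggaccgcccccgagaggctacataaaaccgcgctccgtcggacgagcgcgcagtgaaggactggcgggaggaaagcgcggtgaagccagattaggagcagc
Hspa1a: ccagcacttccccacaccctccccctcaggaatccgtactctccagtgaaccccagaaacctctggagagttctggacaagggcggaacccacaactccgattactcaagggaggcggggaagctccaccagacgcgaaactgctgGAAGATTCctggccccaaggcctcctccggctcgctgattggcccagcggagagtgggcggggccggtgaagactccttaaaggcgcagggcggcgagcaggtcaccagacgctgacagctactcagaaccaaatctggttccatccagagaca
Hspa1b: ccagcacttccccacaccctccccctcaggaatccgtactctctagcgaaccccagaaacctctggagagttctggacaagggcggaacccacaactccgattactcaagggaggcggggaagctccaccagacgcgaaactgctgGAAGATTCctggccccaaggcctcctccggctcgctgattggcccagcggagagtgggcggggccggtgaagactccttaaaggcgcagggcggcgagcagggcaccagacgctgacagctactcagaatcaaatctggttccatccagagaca
The CArG box lay 72 bases before the start in Egr2, the pair of them in Dusp5 began 82 and 72 bases before it, and those in Srf began 82 and 62 bases before it. The Hspa1a and Hspa1b windows were identical at 296 of 300 bases, with the heat shock element 104 bases before both starts. Among the 66 higher genes, 47 had a promoter in the RefSeq table. On either strand, a CArG box was found for 5 of these 47 genes (Dusp5, Egr2, Serpinc1, Srf and Zfp36) and in 1.63% of all 32851 promoters, and TGACGTCA was found for 4 (Btg2, Dusp1, Errfi1 and Maff) and in 1.79% of all promoters. The AP-1 site TGANTCA was found for 7 of the 47 (7.81% of all promoters), GAANNTTC for 4 (7.86%), the interferon-stimulated response element for 1 (3.44%) and the gamma-activated sequence TTCNNNGAA for 5 (8.3%). Among the 26 lower genes, 19 had a promoter, with no CArG box or TGACGTCA, 2 genes with TGANTCA, 4 with GAANNTTC, 1 with the interferon-stimulated response element and 1 with TTCNNNGAA. GAANNTTC and TTCNNNGAA can overlap. The shares of all promoters are over promoters, of which a gene may have several, and the matches describe letters in these windows only.

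Egr2, a zinc finger transcription factor and the first gene of the ranking, was 6.91, 6.95 and 7.91 on the neighbours and 11.80 on day 15, a difference of 4.55 or 23.4-fold. Its day 15 value stood 3.90 above day 20 replicate 2, the highest neighbour. Egr1, the founding member of the family, was 11.24, 11.18 and 12.07 on the neighbours and 14.23 on day 15 (difference 2.73). Egr3 was split between its probe sets. One probe set was 6.44, 6.24 and 7.30 on the neighbours and 12.58 on day 15, a difference of 5.91 that topped all probe sets, whereas the set with the higher mean over all arrays was 7.17, 7.16 and 6.82 on the neighbours and 7.48 on day 15 (difference 0.43). Nr4a1, an orphan nuclear receptor, was 8.14, 7.87 and 8.95 on the neighbours and 10.80 on day 15 (difference 2.48). Nr4a3 differed by 1.42, Egr4 by 0.47 and Nr4a2 by 0.31. Nr4a2 lay within the range of the neighbours, since day 20 replicate 2 was higher at 7.88 than day 15. In all, 4 of the 7 members were called higher and none lower (0.363% and 0.143% of all genes), and the median difference was 1.42.

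**Figure D1:**
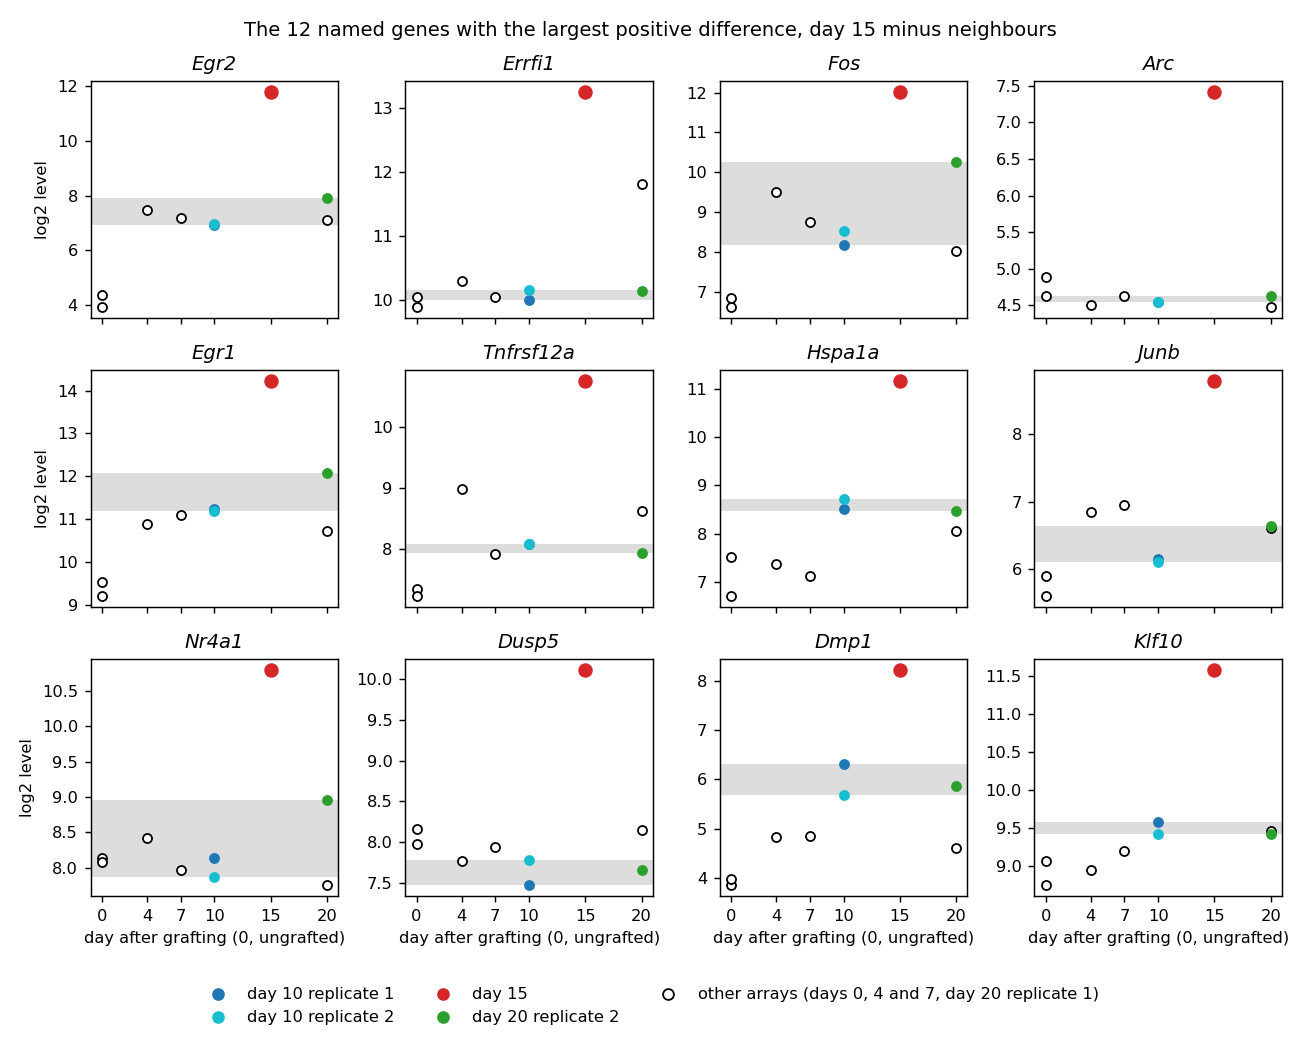
Log2 level (y axis) against day after grafting (x axis; 0 is ungrafted) for the 12 named genes with the largest positive difference; each point is 1 array, the grey band is the range of the 3 neighbouring arrays and the day 15 array is red. In all 12 genes the red point is the highest of the 9 arrays, with differences from 2.11 for Klf10 to 4.55 for Egr2.

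Among the AP-1 subunits, 5 of 10 were called higher and none lower (0.363% and 0.143% of all genes), with a median difference of 1.08. Fos was 8.17, 8.53 and 10.26 on the neighbours and 12.02 on day 15, a difference of 3.03, or 1.76 from day 20 replicate 2 alone. Day 20 replicate 2 thus lay between both day 10 arrays and day 15. Junb was 6.15, 6.10 and 6.64 on the neighbours and 8.79 on day 15 (difference 2.49). Fosb, Maff and Fosl1 were called with differences of 1.72, 1.53 and 1.45. On the neighbours Fosb and Fosl1 had means of 4.62 and 4.83, near the 25th percentile of all values (4.82). Their day 15 values of 6.34 and 6.28 were below the median of all values (6.57). Jun itself was 10.29, 10.12 and 10.33 on the neighbours and 10.85 on day 15, above the range by less than 2-fold, and Atf3, a stress-induced partner, was 7.63, 7.49 and 7.56 on the neighbours and 8.14 on day 15. Jund, the constitutively expressed member, differed by -0.09 and Batf by -0.38, so not every member was high. In all, 8 of the 10 subunits were above the range of the neighbours (22.3% of all genes were) and 1 was below it.

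Of the other immediate early regulators, 18 of 19 members were above the range of the neighbours (22.3% of all genes were above it). Of these, 10 were called higher (0.363% of all genes were), and the median difference over the list was 1.24. Arc, a protein of the neuronal synapse that is also an early response transcript, was 4.54, 4.54 and 4.63 on the neighbours, below the 25th percentile of all values (4.82), and 7.42 on day 15. Klf10, induced by TGF-beta, was 9.58, 9.41 and 9.42 on the neighbours and 11.58 on day 15 (difference 2.11). Ier2 differed by 2.06, Btg2, an antiproliferative factor, by 2.03, Bhlhe40, a transcriptional repressor, by 1.96, and Cebpb, a basic leucine zipper factor, by 1.82. Both matricellular genes on the list were called: Ccn1 (formerly Cyr61) with a difference of 1.93 and Ccn2 (formerly Ctgf) with 1.43. Ier3 differed by 1.80 and Srf, which encodes serum response factor, by 1.24. The remaining members differed by 0.07 for Cebpd up to 0.99 for Csrnp1.

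The feedback inhibitors divided into called and uncalled members. Errfi1, which inhibits the EGF receptor, was 10.00, 10.16 and 10.14 on the neighbours and 13.25 on day 15, a difference of 3.15 (limma adjusted p = 0.372), and both of its probe sets differed by over 3. The SD of the 3 neighbours was 0.085. The MAP kinase phosphatases Dusp5, Dusp6, Dusp4 and Dusp1 were called with differences of 2.48, 1.95, 1.37 and 1.13, and Spry4, an inhibitor of receptor tyrosine kinase signalling, with 1.75, of which 0.98 remained against day 20 replicate 2 alone. Trib1 and Zfp36, which destabilizes cytokine transcripts, differed by 1.40 and 1.35. The 10 uncalled members ranged from -0.17 for Rgs2 to 0.81 for Spry2. Among them were the phosphatases Dusp2 (0.41) and Dusp10 (-0.15) and the inhibitors of NF-kB and cytokine signalling Nfkbiz (0.20), Tnfaip3 (-0.02), Socs3 (-0.12) and Nfkbia (-0.14). Of the 18 members, 8 were called higher and none lower (0.363% and 0.143% of all genes), with a median difference of 0.71. Above the range were 12 and below it 4, where 22.3% and 20.1% of all genes were.

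The heat shock list was led by the inducible HSP70 genes. Hspa1a was 8.52, 8.71 and 8.47 on the neighbours and 11.17 on day 15 (difference 2.61), and Hspa1b was 10.95, 11.02 and 10.65 on the neighbours and 12.53 on day 15 (difference 1.66). These genes are near-identical copies, so their probe sets may share signal. Dnajb1, a co-chaperone of HSP70, was 11.26, 11.52 and 11.24 on the neighbours and 12.83 on day 15 (difference 1.49), and Hsph1, a nucleotide exchange factor of HSP70, differed by 1.23. Among uncalled members, the co-chaperone Dnaja1 differed by 0.67, the mitochondrial chaperonin genes Hspd1 and Hspe1 by 0.50 and 0.37, Hsp90aa1, which encodes HSP90 alpha, by 0.24, the constitutive HSP70 gene Hspa8 by 0.14 and the small heat shock gene Cryab by -0.46. Of 20 measured members, 4 were called higher (0.363% of all genes), and the median difference was 0.42. Above the range were 16 and below it 1 (22.3% and 20.1% of all genes). Across the 74 members of the 5 lists, 60 were above the range of the neighbours and 6 below it, and 52 had their highest value of all 9 arrays on day 15 (7.76% of all genes).

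**Figure D2:**
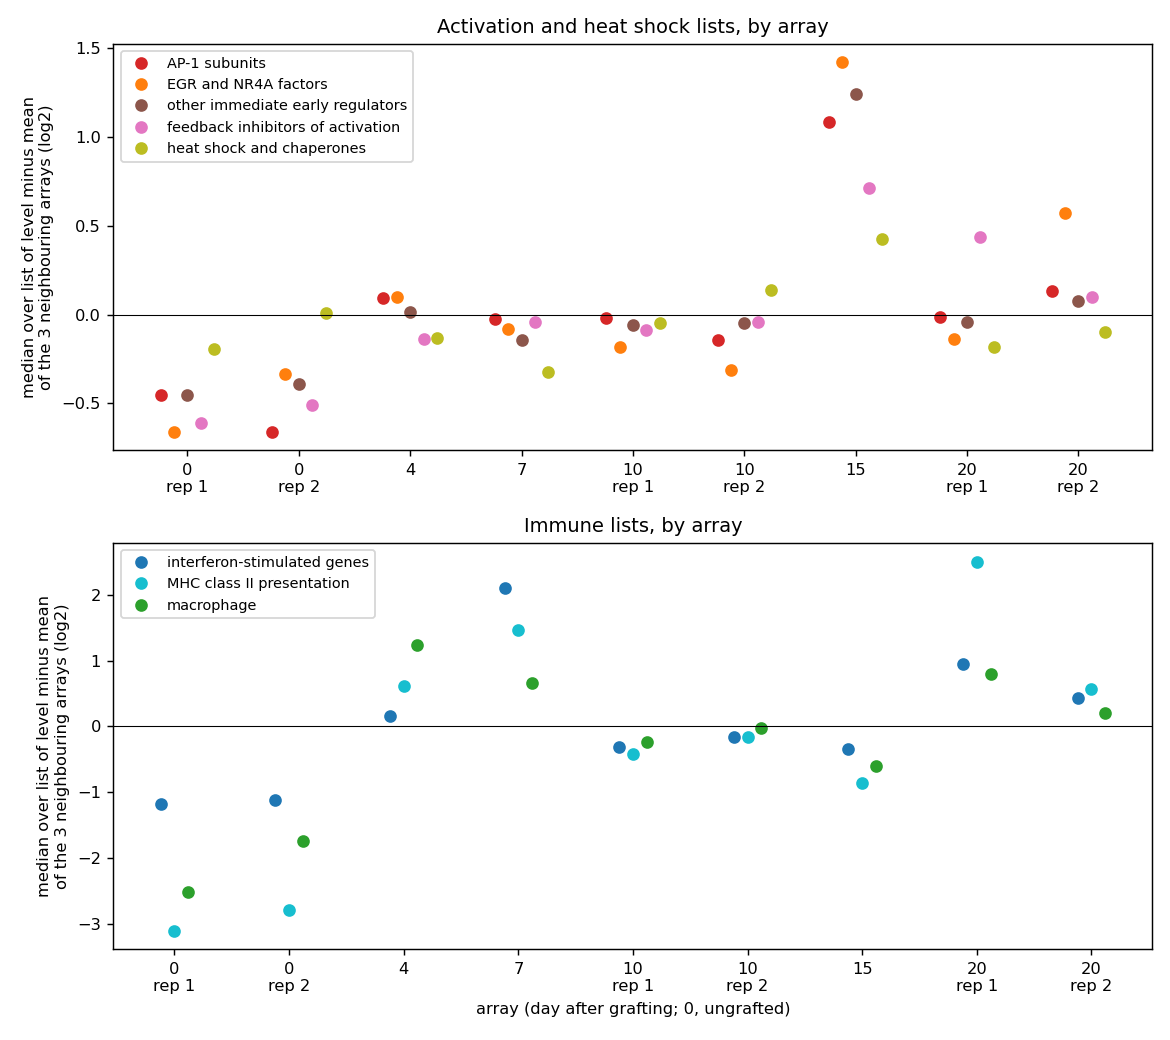
Median over each list of the level minus the mean of the 3 neighbouring arrays (y axis, log2) on each of the 9 arrays (x axis, day after grafting and replicate), for 5 activation and heat shock lists above and 3 immune lists below; each point is 1 list on 1 array. The 5 lists are highest on day 15, between 0.42 and 1.42, whereas the immune lists on day 15 lie between the ungrafted arrays and the other grafts, from -0.34 to -0.85.

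Further stress programmes were measured with 6 lists and the clock list. In the unfolded protein and integrated stress response, Ddit3, which encodes the factor CHOP, was 8.86, 8.83 and 9.02 on the neighbours and 10.03 on day 15 (difference 1.13), and it was the single call among 20 members (median difference 0.19). The chaperone Hspa5 differed by 0.36, Atf4 by 0.65 and Trib3, a target of CHOP, by 0.17. Of 13 genes of oxidative stress and metallothioneins, Srxn1, which reduces oxidized peroxiredoxins, was called with a difference of 1.02, while Hmox1, the inducible heme oxygenase, was 9.08, 9.57 and 8.92 on the neighbours and 8.79 on day 15, below the range (list median -0.08). None of the 16 DNA damage and p53 targets was called (median 0.05). Cdkn1a, which encodes p21, was 8.96, 8.54 and 8.29 on the neighbours and 9.31 on day 15, a difference of 0.72. None of 18 NF-kB targets, cytokines and chemokines was called (median 0.18), and Il6 was at 4.11, 3.90 and 3.91 on the neighbours and 3.91 on day 15, all below the 25th percentile. None of 16 hypoxia and glycolysis genes (median 0.19) or 15 clock genes (median 0.09) was called. Among 14 glucocorticoid targets 4 were called higher, where 0.363% of all genes were (median 0.47). These were Sgk1, a serum- and glucocorticoid-induced kinase, with a difference of 1.24, Pdk4 with 1.06, and Errfi1 and Dusp1, which another list also holds. Fkbp5, a further target of the receptor, differed by 0.22 and Tsc22d3 by -0.14. The lowest of the 14 differed by -1.10 but lay within the range of the neighbours, so it was not called. Of 24 cell cycle and DNA replication genes none was called, and the median was 0.01.

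Outside the lists, the named genes of the higher side were Tnfrsf12a and Dmp1. Tnfrsf12a, the receptor of the cytokine TWEAK, was 8.08, 8.09 and 7.93 on the neighbours and 10.75 on day 15 (difference 2.71). Dmp1, a phosphoprotein of mineralized matrix, was 6.31, 5.67 and 5.87 on the neighbours and 8.23 on day 15, and its 3 probe sets differed by 2.10 to 2.47. Homer1, chosen after its values were seen, differed by 2.59 at 1 probe set (7.33, 7.48 and 7.45 on the neighbours, 10.01 on day 15) and by 0.56 at the probe set with the highest mean. Of the 66 genes, 25 had several probe sets, and in 21 of these all sets differed upwards. For 62 of the 66 genes the day 15 value was the highest of the 9 arrays (7.76% of all genes). A call already places day 15 above 3 of these arrays, so that count is in part fixed by the selection. Against day 20 replicate 2 alone, 1 of those 3 arrays, 52 stayed over 2-fold higher. The genes nearest the threshold were Srxn1 at 1.0220 and Itga5 at 1.0173 inside, and Slc30a1 at 0.9989 and Clcf1 at 0.9974 outside.

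**Figure D3:**
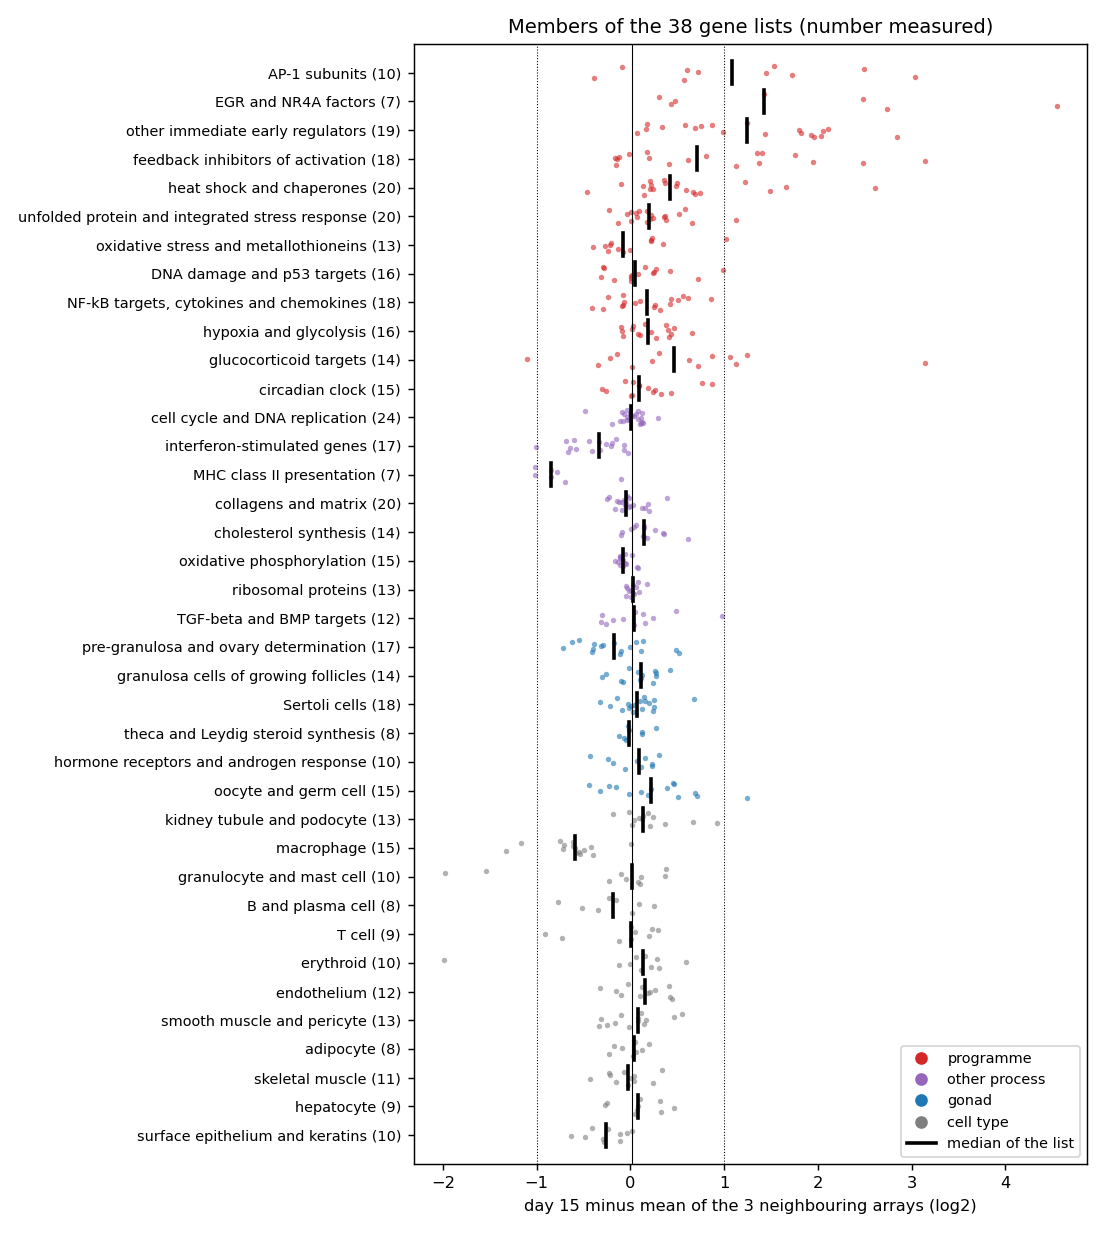
Day 15 minus the mean of the 3 neighbouring arrays (x axis, log2) for each measured member (points) of 38 gene lists (y axis, number of members in brackets), with the list median as a black bar, the median of all genes as a thin line and the 2-fold limits dotted. The lists at the top reach medians of 1.42 and 1.24, and MHC class II presentation (-0.85) and macrophage (-0.59) lie furthest to the left.

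On the downward side, the largest differences belonged to genes with 1 neighbour well above the others. Prap1, which encodes a secreted proline-rich protein, was 8.56, 8.04 and 11.27 on the neighbours and 5.93 on day 15, a difference of -3.36. Ltf, the iron-binding lactotransferrin of secretory epithelium and neutrophils, was 7.88, 8.76 and 11.33 on the neighbours and 6.69 on day 15 (difference -2.63). In both genes day 20 replicate 2 was the highest neighbour, and the SD of the neighbours was 1.74 and 1.80. Both day 10 arrays were also above day 15 in these genes. S100a8 and S100a9, the calprotectin subunits of neutrophils, were 10.43 and 10.13 on day 10 replicate 2 but between 6.04 and 6.32 on the other neighbours, and 5.66 and 5.91 on day 15, so that their differences of -1.98 and -1.55 rested on 1 array. Of the 26 lower genes, 19 had day 20 replicate 2 as the highest neighbour (38.9% of all genes had it), and 12 stayed past 2-fold when that array was left out.

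The other named genes of the downward side were closer to the threshold. Lyz2, the lysozyme of macrophages and neutrophils, was 12.80, 13.11 and 13.51 on the neighbours and 11.98 on day 15 (difference -1.16). Ccr2, the chemokine receptor of recruited monocytes, was 7.78, 7.79 and 7.79 on the neighbours and 6.46 on day 15 (difference -1.33); 1 of its 4 probe sets differed upwards by 0.31. Cxcl9, an interferon-gamma-induced chemokine, was 8.53, 8.20 and 8.81 on the neighbours and 6.99 on day 15 (difference -1.53). Arg1, a marker of alternatively activated macrophages, differed by -1.37, Cfb, complement factor B, by -1.29, the guanylate-binding protein Gbp8 by -1.25 and Ccl8 by -1.21. Ccl8 and Cxcl9 are chemokines. Of the fixed list of 18 NF-kB targets, cytokines and chemokines, none was called lower, where 0.143% of all genes were. Above the range were 10 and below it 2 (22.3% and 20.1% of all genes). Mid1, a ubiquitin ligase, differed by -1.25 at 1 of its 3 probe sets. Further called genes, named after their values were seen, were Sult1d1 (-1.73), Mal2 (-1.19), Ms4a4b (-1.11), Fxyd3 (-1.07), Ccl5 (-1.04), Padi1 (-1.02), Padi2 (-1.02) and Nmrk1 (-1.01), each with day 20 replicate 2 as the highest neighbour, and Runx1 (-1.09). Runx1 had its highest neighbour on day 10 replicate 2 and 5 further probe sets between -0.32 and 0.17.

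**Figure D4:**
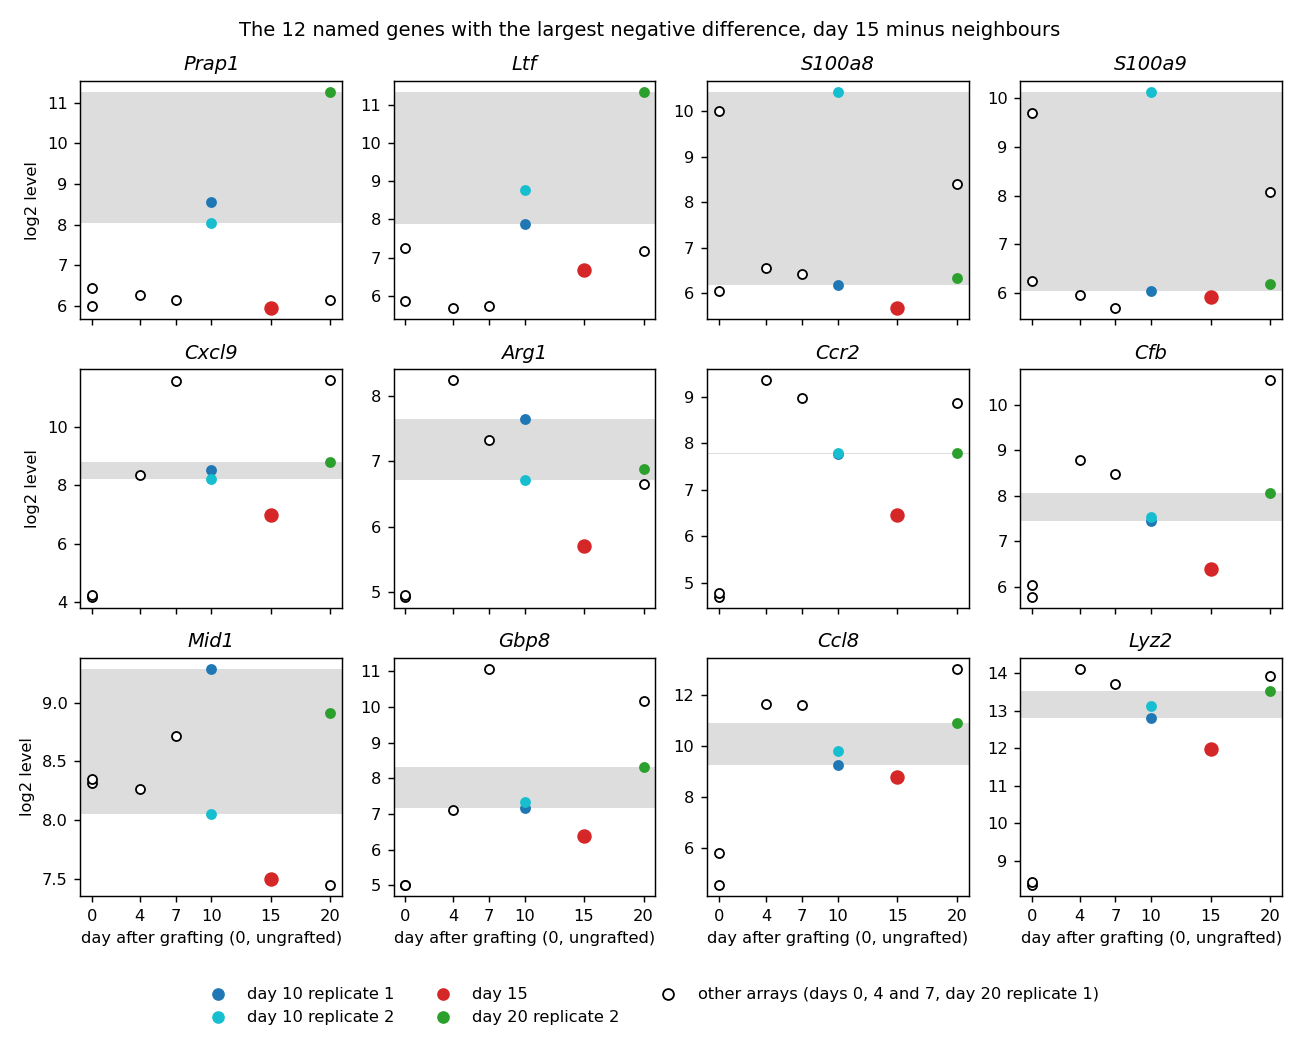
Log2 level (y axis) against day after grafting (x axis; 0 is ungrafted) for the 12 named genes with the largest negative difference, drawn as in the plot of the higher genes. The red day 15 point lies under the grey range of the neighbours in each panel, but the range spans over 3 on the log2 scale for Prap1, Ltf, S100a8 and S100a9, and in 10 of the 12 panels day 15 is not the lowest of the 9 arrays.

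As groups, these genes were low without passing the 2-fold limit. Of the 7 measured MHC class II genes, 7 were below the range of the neighbours (20.1% of all genes were), with a median difference of -0.85. H2-Ab1, a class II beta chain, was 9.94, 10.13 and 11.08 on the neighbours and 9.36 on day 15 (difference -1.02), and H2-Eb1 differed by -1.02; these were the 2 members called lower. Of 15 macrophage genes, 14 were below the range and 2, Lyz2 and Ccr2, were called (median -0.59). Their mean level was 8.95, 9.28 and 9.38 on the neighbours, 8.57 on day 15, and 6.68 and 7.20 on the ungrafted arrays. All 15 were above both day 0 arrays (31.9% of all genes were) and below days 4 and 7 (42.6% of all genes were). None of the 17 interferon-stimulated genes was above its neighbours' mean, 10 were below the range and Iigp1, an interferon-induced GTPase, was called at -1.01 (median -0.34). Granulocyte and mast cell genes had a median of 0.02, with S100a8 and S100a9 the calls, T cell genes 0.00 and B and plasma cell genes -0.19. The genes nearest the threshold were Saa3 at -1.0068 and Iigp1 at -1.0051 inside, and Malat1 at -0.9952 and Apoc2 at -0.9885 outside.

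Counted by probe set, the downward side was longer and of another kind. Of the 45101 probe sets, 115 were called higher (0.255%) and 186 lower (0.412%), where 22.3% of all probe sets lay above the range and 21.7% below it, but 26 of the 186 were the set of their gene with the highest mean, against 66 of the 115. The other 160 lower sets had their highest value of the 4 arrays on day 10 replicate 2 in 147 cases. Of all probe sets 21.1% did, but that share includes sets highest on day 15, which a lower set cannot be. The median level of the 160 sets was 6.90, 8.09 and 6.68 on the neighbours and 5.96 on day 15. Among them was the Dap 5′ set, itself a spiked-in poly-A control and part of the mean of 5′ control sets given below. For the 105 genes with a single symbol behind 116 of these sets, the highest-mean probe set had a median difference of -0.02, and 2 of them were called lower. Malat1, a nuclear noncoding RNA, had 7 probe sets with differences from -1.40 to 0.40. The spiked-in poly-A controls also differed: the mean of their 5′ sets was 5.89, 6.96 and 5.87 on the neighbours and 5.56 on day 15, and the 3′ minus 5′ difference of Gapdh was 0.12, -0.17, 0.15 and 0.15 on the same arrays. On the arrays outside the comparison, the mean of the 5′ control sets and the median of the 160 sets ranked differently. They were 7.38 and 6.37 on day 4, 6.59 and 7.56 on day 7, and 7.85 and 7.54 on day 20 replicate 1. On ungrafted replicates 1 and 2 they were 6.55 and 6.78, then 6.85 and 5.30. Labelling used either of 2 kits, and the sources used here do not say which array had which. The part of labelling in these 160 sets was not tested. Without day 10 replicate 2, 83 probe sets were called lower, of which 55 were among the 186, and 123 were called higher, of which 103 were among the 115. Without day 20 replicate 2, the counts were 342 higher and 399 lower, and without day 10 replicate 1 they were 118 and 322.

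**Figure D5:**
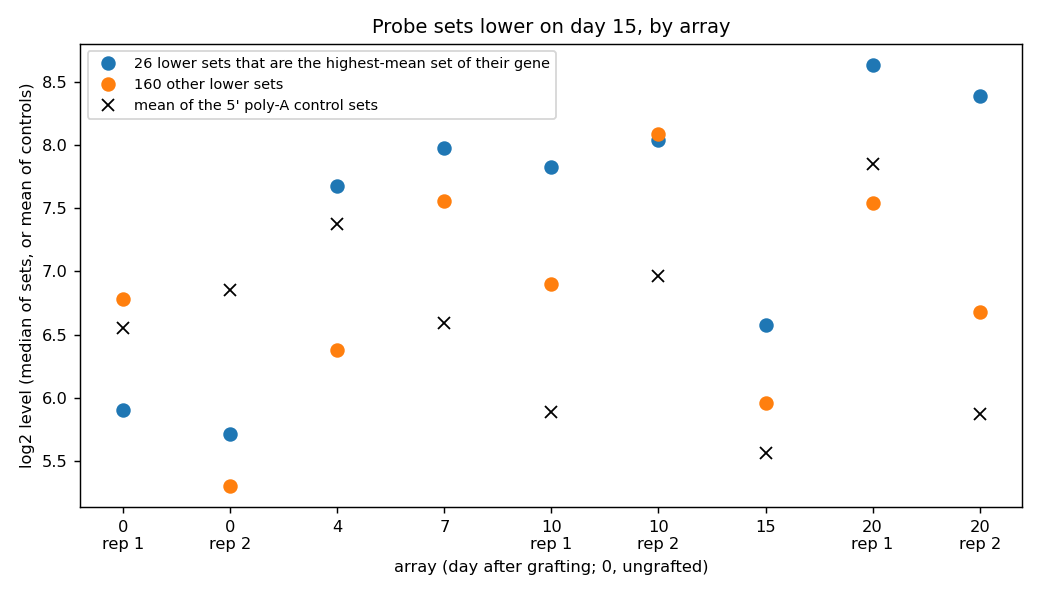
Median log2 level (y axis) on each array (x axis, day after grafting and replicate) of the 26 lower probe sets that are the highest-mean set of their gene (blue) and of the 160 other lower sets (orange), with the mean of the 5′ poly-A control sets (crosses). Among the 4 arrays compared, the orange points peak on day 10 replicate 2 at 8.09 and the crosses do so at 6.96, while the blue points peak on day 20 replicate 2 at 8.39. The other arrays, in order, are ungrafted replicates 1 and 2, day 4, day 7 and day 20 replicate 1. On these the orange points lie at 6.78, 5.30, 6.37, 7.56 and 7.54. The crosses there lie at 6.55, 6.85, 7.38, 6.59 and 7.85, ranked differently from the orange points.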

How the data were processed

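Total RNA of pooled grafts was amplified, biotin-labelled with 1 of 2 3′ IVT kits and hybridized to Affymetrix mouse expression arrays. The deposited table holds log2 values that the authors normalized with RMA, 1 column per array, in a version that the sources used here leave unnamed. RMA fits all arrays together, so each value depends in part on the other arrays, and precision is limited by how few arrays there are. Samples were grouped by their titles. The platform annotation gave 34958 of 45101 probe sets 1 symbol and 932 several, and held no entry for 9211; 18194 genes were each represented by the probe set with the highest mean over the 9 arrays.

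Day 15 was compared with the mean of day 10 replicates 1 and 2 and day 20 replicate 2. A call needed a value outside the range of the 3 arrays and a difference over 1 on the log2 scale (2-fold). The lmFit and eBayes functions of limma 3.58.1 (R 4.3.3), with Benjamini-Hochberg adjustment across the whole array, tested the same contrast and were tested on simulated data. The titles call the replicates biological, but whether they came from separate litters or hosts is not stated. Named were the 12 genes with the largest difference in each direction above the median of all values (6.57) at day 15 or in the neighbours, called members of 38 gene lists, and a fixed set of genes including Jun, Atf3, Il6 and Foxl2. List members named without a call, such as Nfkbia, were chosen after their values were seen. The comparison, the members and the lists were chosen with earlier results of these data known. Alternatives changed the neighbours, the scaling, the filter on low values, the fold and the summary by gene. Python 3.11.15 with pandas 2.3.3 and matplotlib 3.10.9 did the rest.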

Additional observations from a re-analysis of the deposited data

How the results depend on the processing

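No paired analysis was possible because day 15 has 1 array, so the groups share fewer than 2 replicate numbers. Each call rests on that array, without a replicate of its own. The 66 higher genes were all positive, and the 26 lower genes all negative, under the 11 other settings of neighbours, scaling, filter and gene summary in which they were present. Leaving out or reweighting neighbours, or filtering probe sets, keeps the sign by construction, because a called gene lies outside the range of all neighbours. Among settings that kept all 26 lower genes, the fewest past 2-fold were 12 without day 20 replicate 2. The next were 18 with the mean over all probe sets and 19 with each array centred on its median. Of the 66 higher genes, 52 stayed past 2-fold against day 20 replicate 2 alone and 55 with the mean over all probe sets. Leaving out a neighbour gave 118 to 342 higher and 83 to 399 lower probe sets, and day 20 replicate 2 as the sole neighbour, an alternative chosen after seeing the data, gave 391 lower ones. Adding day 20 replicate 1 gave 380 lower. With probe sets above the median only, 76 were higher and 108 lower; with a fold threshold of 1.5, 502 and 992; with genes in place of probe sets, 66 and 26. limma called none under any setting but one: with values below the 25th percentile raised to it, 6 were higher and 1 lower, since sets at that floor have no spread and the prior variance became 5.77e-05.

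Among the medians of the 12 stress and activation lists and the 3 immune lists, 143 values moved by less than the spread between the neighbours and 22 by more. With probe sets above the median only, the median became 0.66 for AP-1 subunits, 1.95 for EGR and NR4A factors, 1.12 for other immediate early regulators, 0.67 for glucocorticoid targets and -0.0755 for NF-kB targets. With the mean over all probe sets of a gene, it became 0.65 for AP-1, 2.48 for EGR and NR4A and 1.02 for other immediate early regulators. With day 20 replicate 1 added, it became 1.39 for other immediate early regulators, 0.82 for feedback inhibitors, -0.0391 for NF-kB targets, 0.13 for hypoxia, -1.43 for MHC class II and -0.84 for macrophage genes. Against day 20 replicate 2 alone, it became 1.14 for other immediate early regulators, 0.56 for feedback inhibitors, 0.27 for glucocorticoid targets, -0.20 for clock genes and -0.76 for interferon-stimulated genes. Leaving out a neighbour gave -0.0986 to 0.0305 for oxidative stress and 0.17 to 0.26 for hypoxia, and the 25th percentile floor gave 0.0267 for NF-kB targets. The cause was not tested, except that the filter and the floor use other probe sets or values by construction.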
